A study of Danio rerio with 3 samples.

Results

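Semaphorins, ephrins, slits, netrins and their receptors are described here along the zebrafish heart at 2 days post-fertilization (dpf). Members were all rows of the 3 read count tables whose gene name began with sema, plxn, nrp, efn, epha, ephb, slit, robo, ntn or unc5, without EFNB3 and without ephx names, and that held 10 or more reads over the 3 hearts. The letters fitted 74 rows. Of these, 1 was EFNB3 and 9 had fewer than 10 reads, which left 64 members among 15833 gene rows with at least 1 read. At the edge of the minimum, ntn2 and plxnb3 entered with 10 reads each and SEMA6D stayed out with 9. The study cut dissected wild-type hearts into 10 µm cryosections along the axis that runs between the outflow and inflow poles and sequenced the RNA of every section (tomo-seq). All 3 hearts were wild type at 2 dpf, with no treatment, and each is 1 animal. The question asked of each gene is therefore where along that axis its reads lie.

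Guidance ligands tell a neighbouring cell where to go or with whom to mix. Semaphorins are read by plexins, often with a neuropilin as co-receptor, slits by robo receptors and netrins by unc5 and DCC receptors, while ephrins and Eph receptors signal at direct cell contacts. In the embryonic heart and its vessels these families are known for guiding endothelial, neural crest and myocardial cells, and for keeping arterial and venous endothelium apart.

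The members held 36 ligands (22 semaphorins, 9 ephrins, 3 slits and 2 netrins) and 26 receptors (11 Eph receptors, 8 plexins, 3 neuropilins, 2 robo and 2 unc5 receptors). UNC50 and SLITRK2 share letters with these families without belonging to them and are counted only because the rule takes names. Names in capitals are the human-match names of the annotation table, and 8 of the 56 names belong to 2 rows each, for example EFNB2 (row 1, ENSDARG00000020164, and row 2, ENSDARG00000074050). Rows that share a name may be copies that share reads, so each is treated as uncertain in its split.

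The 5 regions used, which share no section, were set on the section scale of heart 1: outflow tract (OFT, sections 4 to 10), ventricle (12 to 18), AV canal (19 to 26), atrium (27 to 32) and sinoatrial (SA) region (33 to 39). Hearts 2 and 3 were laid on that scale by the middle sections of the ventricular and atrial myosin genes vmhc and myh6. Sections 89 and 90 of heart 2 (394363 and 699259 gene reads) fell between the OFT and ventricle windows. They belong to no region and count only in the rest of the heart. The hearts held 5889097, 5243516 and 2590278 gene reads, and depth per region lay between 14700 and 2895368 reads. A level is given as reads per 10000 gene reads of the region (per 10000 for short), with mean ± SD over n = 3 hearts. Because a section is bulk tissue, fewer cells of a type and less RNA per cell cannot be told apart.

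The OFT window of heart 3 differed from those of hearts 1 and 2 in its markers. The heart muscle markers (5 of 6 listed genes had reads, among them myl7 and tnnt2a) summed to 305 per 10000 there, against 3.35 in the OFT of heart 1 and 0.61 in that of heart 2. This window held the 14700 reads named above, the fewest of all regions, and 0 member reads, which allows any member up to 2.04 per 10000 (3 reads, counting error only). The fold changes and counts of the OFT are therefore given with and without heart 3. Skin markers were also unequal between hearts: epcam had 0, 3131 and 0 reads and krt4 had 45, 9668 and 602 reads in hearts 1, 2 and 3. Their part in the member levels was not tested.

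The members took 7297, 8596 and 5084 reads in hearts 1, 2 and 3, or 12.4, 16.4 and 19.6 per 10000. They were low and patchy. A member had a median of 171.5 reads over the 3 hearts, and 40 members had 100 or more. Reads were present in all 3 hearts for 36 members, in 2 hearts for 17 and in 1 heart for 11. In heart 1 the median member had reads in 3.5 sections, and 28 of its 56 members with reads held 50% or more of them in a single section. Since no source used here says that molecular identifiers were counted, such a peak may come from few molecules.

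In heart 1 the OFT held 51.2% of member reads and 28.3% of all gene reads. In heart 2 it held 52% of member reads and 55.2% of all gene reads, and in heart 3 the AV canal held 54.4% and 63%. Summed over members, the level in heart 1 was highest in the OFT (22.4 per 10000, with 6.54 to 14.02 in the other regions). In heart 2 it was highest in the SA region (22.2 per 10000, with 15.4 in the OFT), and in heart 3 in the ventricle (34.3 per 10000). The region with the highest summed level thus differed in every heart. Of the 36 members with reads in all 3 hearts, 2 had their highest level in the same region in each: EFNA5 in the ventricle and EPHA4 row 2 (ENSDARG00000010767) in the AV canal. The OFT could not be such a region, since it had 0 member reads in heart 3. The share over all genes was not taken for this count, so it says nothing particular to the members. By mean level over 3 hearts, 26 of the 63 members with reads in a region were highest in the OFT (41.3%, against 27.9% of all genes with 10 or more reads). The ventricle was highest for 15 members (23.8%, against 17.2% of all genes) and the SA region for 12 (19%, against 16.5%). The members' share was below that of all genes in the atrium (6 members, 9.5% against 18.6%) and the AV canal (4 members, 6.3% against 19.7%). Without heart 3 the OFT was highest for 31 of 62 members (50%, against 37.4% of all genes). In single hearts it was highest for 28, 24 and 0 members in hearts 1, 2 and 3, or 50%, 42.9% and 0% of those with reads, against 37.5%, 40.7% and 3.3% of all genes. These shares are a description, with no test.

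**Figure D1:**
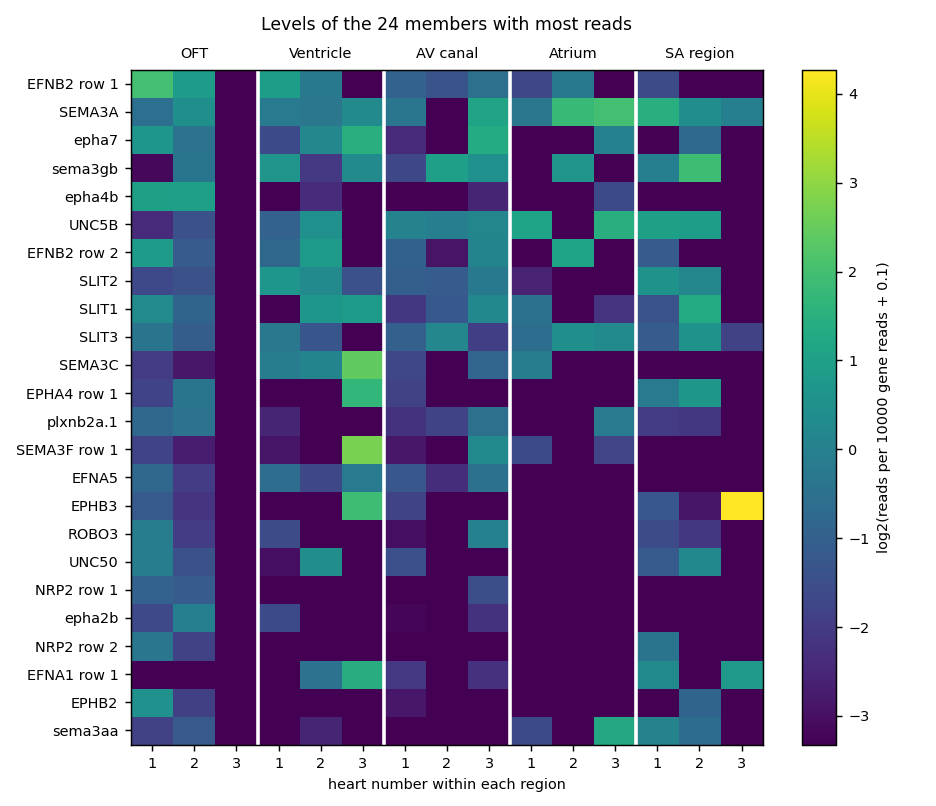
Levels of the 24 members with most reads, as log2(reads per 10000 gene reads + 0.1), with 1 row per member and 1 column per region and heart (OFT, outflow tract; AV, atrioventricular; SA, sinoatrial; dark squares hold 0 or few reads). The OFT column of heart 3 is dark for all members (0 member reads), and EPHB3 in the SA region of heart 3 is the brightest square (110 reads, 19.2 per 10000).

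How close the hearts lay to each other varied by region within a family. Ephrin rows summed to 6.83, 3.25 and 0 per 10000 in the OFT of hearts 1, 2 and 3. In the atrium the ephrin sums were 0.298, 3.03 and 0. Ephrin rows summed to 2.97, 3.24 and 3.39 per 10000 in the ventricle of hearts 1, 2 and 3, and to 1.73, 1.68 and 1.57 in the SA region. The ventricular values of the 3 hearts lay above their SA values, on 411, 137 and 76 reads against 66, 49 and 9. All 9 SA reads of heart 3 were of EFNA1 row 1. Different rows made up the ventricular sums: EFNB2 row 1 gave 249 reads in heart 1 and 0 in heart 3. This pair of regions was picked from many, and no share over all genes was taken. Slit rows summed to 1.26, 1.28 and 1.28 per 10000 in the atrium, a close agreement that rests on 55, 14 and 51 reads. In the SA region the slit sums were 2.04, 4.83 and 0.175. Semaphorin rows had reads in every region of every heart except the OFT of heart 3, between 1.29 per 10000 in the AV canal of heart 1 and 17.3 in the ventricle of heart 3. Eph receptor rows had 0, 0 and 45 reads in the atrium (0.38 ± 0.65 per 10000) and 965, 1411 and 0 reads in the OFT (3.55 ± 3.11). Both netrin rows together had 0 reads in the atrium and 0 in the SA region of all 3 hearts. They had only 41 and 20 reads in all in hearts 2 and 3. There, 0 reads allow up to 0.275 per 10000 in the atrium of heart 2 and 0.524 in the SA region of heart 3. These counts of 0 do not show that netrins were absent.

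**Figure D2:**
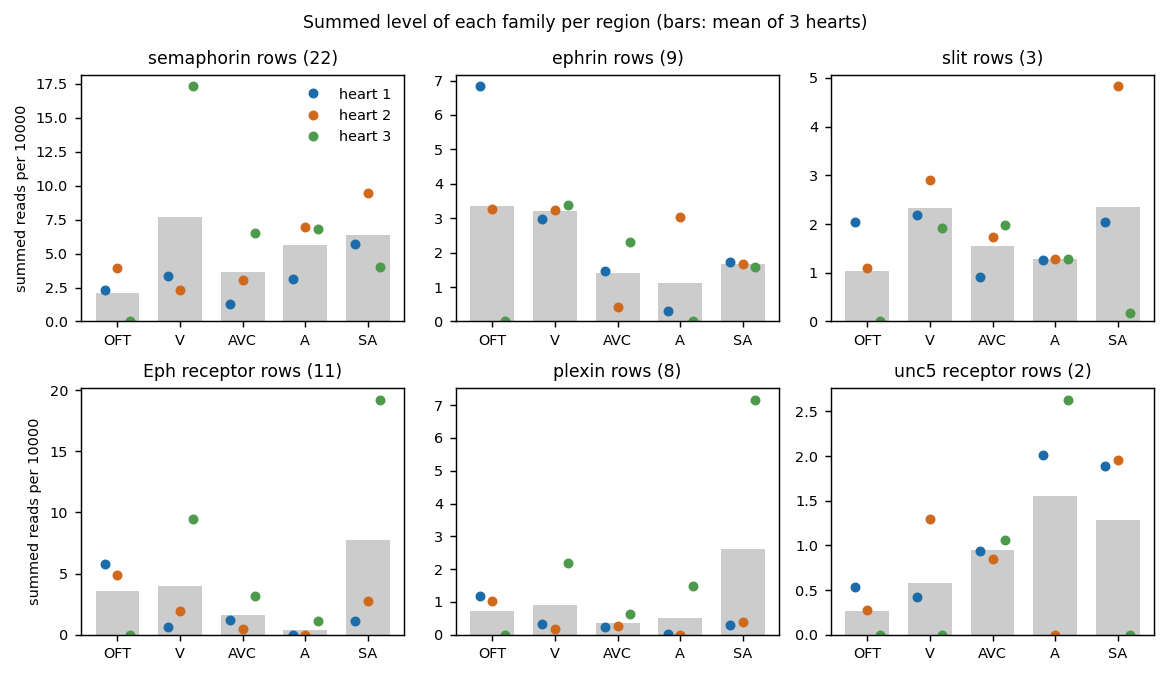
Summed level (reads per 10000 gene reads) of the 6 families with most reads, by region (OFT, outflow tract; V, ventricle; AVC, AV canal; A, atrium; SA, sinoatrial region); points are the hearts, bars their mean, and each panel has its own axis. Ephrin points sit close together in the ventricle (2.97 to 3.39), whereas a single heart sets the mean of Eph receptors in the SA region (19.2 in heart 3, against 1.15 and 2.77 in hearts 1 and 2).

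The first comparison set the OFT against the rest of the heart, with the heart as the replicate. Of 53 members tested with limma, 0 passed an adjusted p of 0.05, where 0.00843% of all 11858 genes tested did. At an unadjusted p under 0.05 there were 4 members (7.55%), against 5.46% of all genes. With limma-voom 0 members and 0% of all genes passed. Without heart 3, 1 of 51 members passed as higher in the OFT, against 0.135% of all genes: the receptor gene epha4b. In the fit over 3 hearts 5 members were higher in the OFT in every heart with reads (9.08% of all genes were) and 10 were lower (26.4% of all genes were). Without heart 3 these counts were 15 higher (29.4% of members, 30.2% of all genes) and 10 lower (19.6% of members, 25.6% of all genes). The members' share on each side was thus near or below that of all genes. The median log2 fold change was -0.21 for members and -0.31 for all genes over 3 hearts, and 0.32 and 0.10 without heart 3.

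The Eph receptor gene epha4b (ENSDARG00000011600) had 313, 533 and 0 OFT reads in hearts 1, 2 and 3, against 0, 112 and 21 elsewhere. As levels these are 1.88, 1.84 and 0 per 10000 in the OFT and 0, 0.477 and 0.0815 in the rest. In heart 1 the reads lay in sections 4 to 9 and nowhere else. In heart 2 they filled sections 88 to 96 without a gap, at the outflow end, apart from 10 reads in section 50. Over 3 hearts the log2 fold change was 1.73 ± 1.24 (SE, limma adjusted p = 0.945). Without heart 3 it was 3.03 ± 0.71 (limma adjusted p = 0.00311). In that fit, with its trended prior variance, the SEs of UNC5B, sema3gb and EPHB2 were nearly the same (0.73, 0.72 and 0.74). The SE and p of epha4b without heart 3 therefore do not show how far hearts 1 and 2 differed. Over the alternatives its adjusted p ran between 1.75e-07, with the sections of heart 1 taken as samples, and 0.988. Hearts 1 and 2 thus placed the gene at the outflow end, and heart 3 carried 21 reads in all.

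EFNB2 row 1 is the ephrin-B2 ligand, whose gene is known as a mark of arterial endothelium, and it had the most reads of all members (1991). Its OFT level was 3.92, 1.70 and 0 per 10000 in hearts 1, 2 and 3, and 0.829, 1.58 and 0.493 outside it. The OFT stood above the rest in heart 1, was nearly level with it in heart 2 and had 0 reads in the shallow window of heart 3 (log2 fold change -0.12 ± 1.73, SE, limma adjusted p = 0.995, and 1.11 without heart 3). In heart 2 a further 247 reads sat in section 89 and 75 in section 90, just past the border of the OFT window. They made up most of the 370 reads of heart 2 in the rest, so its near-level values depend on where that border lies. EFNB2 row 2 had 1.70, 0.349 and 0 per 10000 in the OFT, against 0.407, 0.635 and 0.843 in the rest, so hearts 1 and 2 pointed opposite ways.

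Among members higher in the OFT in each heart with reads, those with the smallest p were EFNA2 row 2 (ENSDARG00000031372), SEMA3G and sema3h, and none had a read in heart 3. EFNA2 row 2, a membrane-anchored ephrin ligand, had 42 and 18 reads in the OFT of hearts 1 and 2 and 0 in the rest (log2 fold change 0.84 ± 0.41, limma adjusted p = 0.900, and 1.26 without heart 3). SEMA3G, a secreted semaphorin, had 25 and 76 reads in the OFT, against 15 and 2 in the rest (0.87, and 1.31 without heart 3, on the log2 scale). The zebrafish semaphorin sema3h had 14 and 40 reads in the OFT, against 0 and 12 in the rest (0.51, and 0.77 without heart 3). These 3 rows hold few reads, and none passed over hearts, with or without heart 3.

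On the other side, EFNA1 row 1 (ENSDARG00000018787) had 0 reads in the OFT of all 3 hearts, against 70, 34 and 265 in the rest (log2 fold change -2.07 ± 0.80, limma adjusted p = 0.900, and -1.35 without heart 3). It is the ligand ephrin-A1. PLXNB1 row 2 (ENSDARG00000075821), a plexin, likewise had 0 reads in the OFT and 15, 21 and 55 in the rest (-1.003, and -0.68 without heart 3). The semaphorin sema6ca had 2, 7 and 0 reads in the OFT, against 20, 138 and 144 in the rest (-1.86, and -1.43 without heart 3). Since the OFT of heart 3 is shallow, its 0 alone separates none of these from their level elsewhere.

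When the 7 OFT sections of heart 1 were set against its other sections in limma, 9 of 41 members passed as higher (22%), against 9.56% of all genes. These were epha4b, sema6bb, epha7, EPHB2, NRP2 rows 1 and 2, EFNA2 row 2, PLXNA3 and EFNB2 row 1, with log2 fold changes between 0.94 and 3.28. Sections of 1 animal are not independent, so this fit describes heart 1 and not the stage. In heart 2, EPHB2 had 49 reads in the OFT and 47 in the rest and PLXNA3 had 13 and 79, while sema6bb had reads in heart 1 alone. Of those reads in the rest, 34 of EPHB2 lay in section 90, next to the OFT window. All 79 of PLXNA3 lay in sections 89 (58 reads) and 90 (21 reads). Neuron markers (8 of 11 genes with reads, 5 of them in heart 1) summed to 2.93 per 10000 in the OFT of heart 1, above its other regions (0.09 to 1.83). They summed to 1.66 in the OFT of heart 2, where the other regions held 0.35 to 3.76. Over the sections of heart 1, tubb5 held 599 reads and every other neuron marker 14 or fewer. Among skin markers, krt8 held 8804 reads there and every other one 45 or fewer. Skin markers summed to 23.6 and 53.98 per 10000 and cartilage markers to 5.52 and 7.39 in the OFT of hearts 1 and 2. Neither list was particular to the OFT. Skin markers summed to 20.3, 96.1 and 76.7 in the SA region of hearts 1, 2 and 3. Cartilage markers summed to 0.0524, 4.45 and 7.17 there, and to 9.04 in the ventricle of heart 3. The part of these markers in the member values was not tested.

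**Figure D3:**
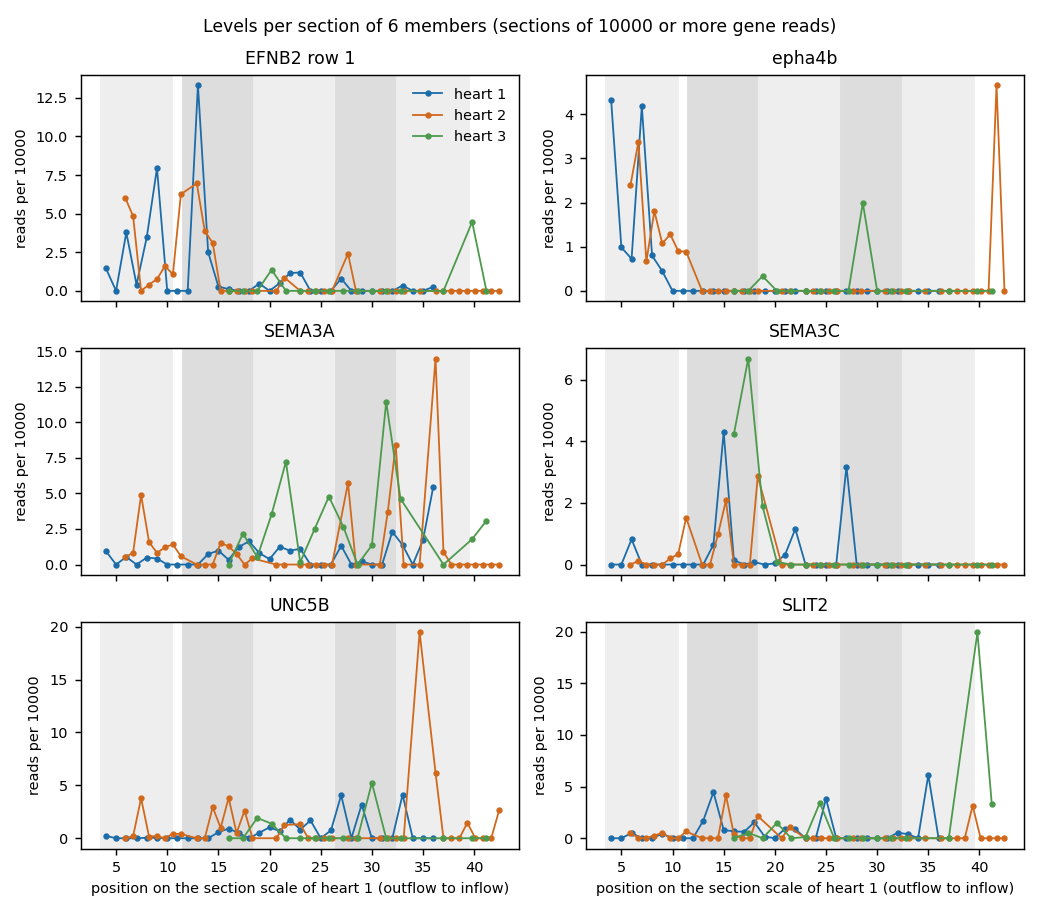
Level in each section (reads per 10000 gene reads of the section, sections with 10000 or more gene reads) of 6 members, on the section scale of heart 1 with the outflow end on the left; grey bands mark OFT, ventricle, AV canal, atrium and SA region. The gene epha4b lay at the outflow end in hearts 1 and 2 (sections 4 to 9 of heart 1), and UNC5B spread over most of the axis. By level SEMA3C peaked within the ventricle in all 3 hearts. In heart 2 that peak was 20 reads in section 80, while section 89, which belongs to no region, held 60.

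The second comparison set the ventricle against the atrium. Of 23 members with enough reads for limma, 0 passed an adjusted p of 0.05 (0.0814% of 6144 genes did), 1 had an unadjusted p under 0.05 (2.64% of all genes), and limma-voom passed 0 members (0.358% of all genes). In every heart with reads 8 members were higher in the ventricle (34.8%, against 26.5% of all genes) and 3 were lower (13%, against 12.4%). The members' median log2 fold change was 0.88, against 0.14 over all genes. Ligands made up most of the tested members: 10 of 15 had a log2 fold change above 0, and of 7 receptors 3 did.

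SEMA3C, a secreted semaphorin known in mouse for its need in outflow tract septation, had the smallest p. It had 113, 41 and 118 reads in the ventricle of hearts 1, 2 and 3, against 36, 0 and 0 in the atrium. The levels were 0.816, 0.969 and 5.26 per 10000 in the ventricle and 0.825, 0 and 0 in the atrium, so heart 1 showed no difference while hearts 2 and 3 did (log2 fold change 3.05 ± 1.34, SE, limma adjusted p = 0.904). In heart 1, 92 of the reads lay in section 15. All 36 atrial reads lay in section 27, next to the AV canal. Of the 137 reads of heart 2, 60 lay in section 89 and 24 in section 90, which belong to no region.

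SLIT2, a secreted ligand of robo receptors, had 204, 47 and 6 reads in the ventricle, against 3, 0 and 0 in the atrium (log2 fold change 2.90 ± 1.53, limma adjusted p = 0.904). The ventricle was higher in 3 of 3 hearts. EFNA5, a membrane-anchored ephrin, had 77, 9 and 18 ventricular reads and 0 atrial reads in every heart (2.51 ± 1.53, limma adjusted p = 0.904). EFNA1 row 1 had 0, 27 and 58 ventricular reads and 0 atrial reads in every heart. Between ventricle and atrium, the reads of these ligands lay in the ventricle alone or nearly so, yet none passed (limma adjusted p = 0.904 for each). In the atrium of heart 2, 0 reads allow up to 0.275 per 10000. EFNA5 had 0.213 in the ventricle of that heart, so its 0 atrial reads there cannot be told apart from its ventricular level. Other regions held many of their reads. For EFNA1 row 1, 27 of 34 reads of heart 2 were ventricular. However, 43 of 70 in heart 1 lay in the SA region. Of its 265 reads in heart 3, 180 lay in section 13, at the inflow end. For SLIT2, 204 of 373 reads of heart 1 were ventricular. Of its 325 reads in heart 3, 121 fell within the AV canal, and 64 and 134 in sections 13 and 14. For EFNA5, the AV canal held 63, 3 and 102 reads. The SEs of these ligands were nearly equal (1.53 for SLIT2, EFNA1 row 1 and EFNA5) in a fit with a trended prior variance. These SEs therefore do not show how far the hearts differed for each ligand, and what kept each from passing was not tested.

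Members on the atrial side had fewer reads. SEMA4B row 1 (ENSDARG00000074414), a membrane-bound semaphorin, had 11, 0 and 0 reads in the ventricle, against 41, 13 and 0 in the atrium. SEMA5B had 0, 0 and 0 reads in the ventricle, against 7, 10 and 0 in the atrium, and the plexin PLXNA2 had 0, 0 and 1 read there, against 1, 0 and 22 atrial reads. No limma adjusted p was under 0.900 for these 3. Myeloid markers (5 of 7 genes with reads, led by lyz) summed to 76.8 and 69.8 per 10000 in the atrium of hearts 1 and 2, with 1.03 in heart 3, and to 0.27 to 1.30 in the ventricles. Endothelial markers (9 of 13 genes with reads, led by cdh5) summed to 8.13, 7.75 and 55.9 per 10000 in the ventricle and 5.45, 9.91 and 7.27 in the atrium. Their part in the member levels was not tested.

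The third comparison set the AV canal against the 2 chambers. Of 36 members tested with limma, 0 passed an adjusted p of 0.05 (0.0346% of 8668 genes did), 1 had an unadjusted p under 0.05 (3.11% of all genes), and limma-voom passed 0 members (0.185% of all genes). In every heart with reads 6 members were higher in the AV canal (16.7%, against 17.3% of all genes) and 9 were lower (25.0%, against 16.9%). The median log2 fold change was -0.19 for members and -0.03 for all genes.

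EPHA4 row 2, an Eph receptor row, had 34, 15 and 35 reads in the AV canal, against 1, 0 and 0 chamber reads. The AV canal was higher in 3 of 3 hearts, at 0.173, 0.491 and 0.214 per 10000 against 0.00549, 0 and 0 (log2 fold change 1.86 ± 1.01, limma adjusted p = 0.955). In each heart the AV canal reads of this row lay in 1 section (21, 73 and 26 of hearts 1, 2 and 3), so each peak may come from few molecules. Heart 2 also had 85 reads of this row in the OFT. NTN1, the secreted netrin-1, had 31, 17 and 20 reads in the AV canal, against 3, 0 and 0 chamber reads (1.67 ± 0.98, limma adjusted p = 0.955). It was higher in the AV canal in 3 of 3 hearts as well, although 140 of its 174 reads in heart 1 lay in the OFT. Its AV canal reads were clumped too, with 28 of 31, 17 of 17 and 17 of 20 in 1 section. The receptor EPHA3 had 77, 0 and 7 reads in the AV canal, against 7, 0 and 0 chamber reads.

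UNC5B, a netrin receptor known from endothelium, had 185, 26 and 167 reads in the AV canal, or 0.943, 0.852 and 1.02 per 10000. These 3 levels lay closer together (0.94 ± 0.09) than those of UNC5B in any other region. In the atrium it had 2.02, 0 and 2.63 per 10000, in the SA region 1.89, 1.81 and 0, and in the ventricle 0.419, 1.30 and 0. UNC5B was thus not particular to the AV canal, and its OFT level was below the rest in hearts 1 and 2 (0.09 and 0.266 against 0.955 and 0.822). In heart 3 the OFT had 0 against 1.06, which lies under the 2.04 per 10000 that 0 reads allow in that window. The log2 fold change was -2.45 ± 1.32 (SE, limma adjusted p = 0.910), and -1.90 without heart 3.

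Lower in the AV canal in 3 of 3 hearts were 3 secreted semaphorins. SEMA3C had 0.204, 0 and 0.453 per 10000 in the AV canal, against chamber levels of 0.818, 0.770 and 1.89 (log2 fold change -2.19 ± 0.86, limma adjusted p = 0.955). SEMA3A, which repels axons through neuropilin and plexin, had 135, 0 and 335 reads in the AV canal, against 136, 67 and 181 chamber reads (-1.45 ± 0.74), and most of that difference came from heart 2. The second SEMA3A-type row, sema3aa, had 0 reads in the AV canal of each heart, against 10, 3 and 92 in the chambers. For SEMA3C, which was picked by its small p, the 3 values in the AV canal did not overlap those in the chambers. The share of all genes that do the same was not taken.

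The fourth comparison set the SA region, where pacemaker cells reside, against the rest of the heart. Of 53 members tested with limma, 0 passed an adjusted p of 0.05 (0.0337% of 11858 genes did), 7 had an unadjusted p under 0.05 (13.2%, against 8.33% of all genes), and limma-voom passed 0 members (0.143% of all genes). No member was higher in the SA region in every heart with reads (2.22% of all genes were). Lower in every heart were 29 members (54.7%), against 54% of all genes. Sections past the SA window at the inflow end count in the rest of the heart, so reads there count against the SA region. Among them are sections 49 to 52 of heart 2 and sections 13 and 14 of heart 3 (191446 and 67220 gene reads). The SA windows are shallow (57203 to 381483 reads), and the median log2 fold change was -0.42 for members and -0.55 for all genes.

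Read on top of that shift, the smallest p belonged to epha4b, SEMA3C and EFNB2 row 1. The first had 0 reads in the SA region of each heart, against 313, 645 and 21 in the rest (log2 fold change -2.47 ± 1.03, limma adjusted p = 0.267). SEMA3C also had 0 reads in each SA region, against 215, 137 and 192 (-2.44 ± 1.03, limma adjusted p = 0.267). EFNB2 row 1 had 9, 0 and 0 reads, against 994, 861 and 127 (-3.10 ± 1.35, limma adjusted p = 0.267). At these depths 0 reads allow up to 0.0786, 0.103 and 0.524 per 10000 in hearts 1, 2 and 3, and the SEMA3C level in the rest was 0.390, 0.277 and 0.758. In heart 3 the levels of epha4b and EFNB2 row 1 in the rest (21 and 127 reads) lay under that limit. For these genes the 0 reads of heart 3 therefore cannot be told apart from the rest. These limits take reads as independent molecules, while SEMA3C reads came in clumps (92 of 215 in a single section of heart 1), so 0 reads in a shallow window do not show that the gene was absent there.

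**Figure D4:**
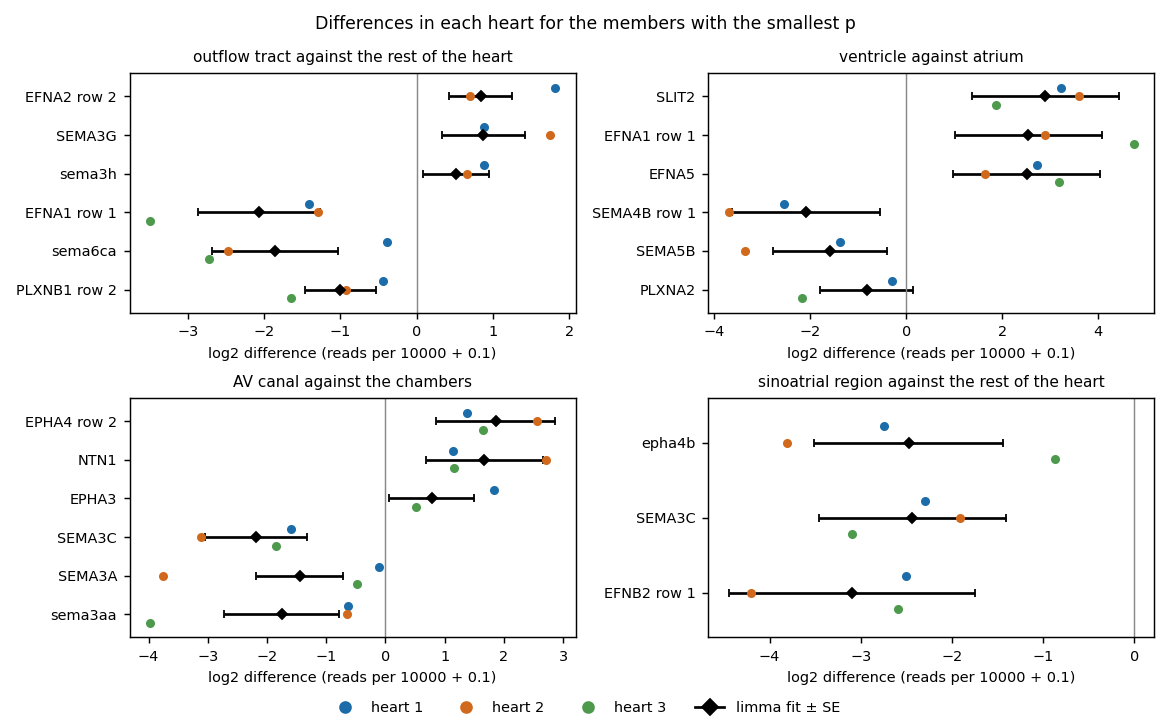
Log2 difference in each heart (points) and limma estimate ± SE (diamonds) for the members with the smallest p on each side of the 4 comparisons; values above 0 are higher in the region named first, and hearts with 0 reads on both sides have no point. All drawn hearts of a member lie on the same side of 0 because members were chosen that way, and no estimate passed an adjusted p of 0.05.

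Of the ligands not yet described, SEMA3A had reads in 51 sections, the most of all members, and reached its highest mean in the atrium (0.71, 3.40 and 3.91 per 10000). The secreted semaphorin sema3gb was lower in the OFT than in the rest in hearts 1 and 2 (0.012 and 0.677 against 0.658 and 1.40 per 10000). In heart 3 the shallow OFT window had 0, which cannot be told apart from the 0.924 in the rest. The highest region of sema3gb was the ventricle, the SA region and the AV canal in hearts 1, 2 and 3. SEMA3F row 1 (ENSDARG00000055373) had 54, 27 and 382 reads, of which 147 lay in section 30 of heart 3, in the ventricle. It thus stood out in heart 3 alone. SLIT1 was highest in the OFT in heart 1 (193 reads, 1.16 per 10000), in the SA region in heart 2 (70 reads, 2.40 per 10000) and in the ventricle in heart 3 (37 reads, 1.65 per 10000), while 175 of its 217 reads in heart 3 lay in the AV canal. SLIT3 had reads in 37 sections, with 0.573, 1.28 and 1.15 per 10000 in the atrium and 0.397, 1.05 and 0.165 in the AV canal.

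Of the receptors not yet described, epha7 was highest in the OFT in heart 1 (246 reads, 1.48 per 10000) and in the ventricle in heart 2 (44 reads, 1.04 per 10000, with 0.635 in the OFT) and heart 3 (59 reads, 2.63 per 10000, with 2.47 in the AV canal). However, section 89 of heart 2, which belongs to no region, held 103 epha7 reads at 2.61 per 10000. EPHA4 row 1 (ENSDARG00000054454) was highest in the SA region in hearts 1 and 2 (0.786 and 1.51 per 10000, with 0.186 and 0.680 in the OFT) and in the ventricle in heart 3 (71 reads, 3.16 per 10000). EPHB3, a receptor of B-type ephrins, had 107, 139 and 192 reads in hearts 1, 2 and 3, and all 192 of heart 3 lay in 2 sections. The receptor epha2b had 37, 251 and 0 reads in the OFT, or 0.222, 0.867 and 0 per 10000, against 0.0782, 0.230 and 0.0738 in the rest. In the same 2 hearts EPHB2 had 221 and 49 reads in the OFT, against 8 and 47 in the rest, and had 0 reads in heart 3. Of those 47, 34 lay in section 90 of heart 2, next to the OFT window.

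The plexin plxnb2a.1 had 83, 187 and 0 reads in the OFT, or 0.498, 0.646 and 0 per 10000, against 0.0947, 0.149 and 0.493 in the rest. The neuropilins are co-receptors of secreted semaphorins and of vascular growth factors. NRP2 row 1 (ENSDARG00000096546) had 71, 104 and 0 OFT reads, against 0, 177 and 42 elsewhere, and those 177 lay in sections 89 and 90 of heart 2, next to the OFT window. NRP2 row 2 (ENSDARG00000038446) had 116, 52 and 0 OFT reads, against 25, 49 and 129 elsewhere. Its 25 reads in heart 1 lay in the SA region (0.655 per 10000, with 0.696 in the OFT), and all 129 of heart 3 lay in section 13, beyond the SA window at the inflow end. Neither row had a read in the ventricle or the atrium of any heart. ROBO3 had 135, 46 and 0 OFT reads, against 61, 38 and 148 elsewhere, while ROBO1 had 20 reads in all and the endothelial robo4 only 4. UNC50, outside these families, had 206, 193 and 0 reads.

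Ligand and receptor values can be read side by side by region, without a test. Ligand rows summed to 8.57, 8.46 and 22.6 per 10000 in the ventricle and receptor rows to 1.63, 3.76 and 11.6. In the SA region ligands summed to 9.46, 15.9 and 5.77 and receptors to 4.22, 5.24 and 26.4. In hearts 1 and 2 both groups were present in each region, except that receptors had 0 reads in the atrium of heart 2.

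Further genes of these pathways (co-receptors, kinases and regulators of actin among them, 84 rows with reads for 80 listed names) were tested in the same fits. Of 67, 42, 53 and 67 rows tested in the 4 comparisons, in the order above, 0 passed an adjusted p of 0.05 in limma in either direction. Their median log2 fold changes were -0.40, 0.24, -0.12 and -0.54, against -0.31, 0.14, -0.03 and -0.55 over all genes.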

How the data were processed

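Whole-heart cryosections were barcoded by section with CEL-seq, pooled and sequenced. The authors deposited 1 table per heart of read numbers per gene and section, mapped to Zv9 with BWA 0.6.2 per the labels. The deposited values are whole-number counts of reads with no normalization, and all were whole numbers when read here. A separate check of the unit could not read the format of the tables, so the values are listed as another unit. Tissue sections numbered 40, 48 and 29. Further columns outside these sections (56, 48 and 67) were ignored. The order of columns 17 to 24 in heart 1 was turned round, following its label. Spike-in rows were left out. Of 16023 gene IDs, 12905 had a name. No coordinates or sequences are given, because no genome of this build was used.

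Reads were summed per region and heart and tested with limma 3.58.1 (R 4.3.3, trended prior variance) on log2(reads per 10000 + 0.1) with the heart as block, since both sums of a heart come from the same animal. Genes needed 10 reads over a comparison and reads in 2 hearts. Tests were two-sided with Benjamini-Hochberg adjustment over all genes tested and a threshold of 0.05. The count test planned first was replaced by this fit, its written substitute. Fits were also run on simulated data. The rows changed there held far more reads than most members, so that run does not show how the fits perform for members. The middle sections that place hearts 2 and 3 were medians weighted by reads per 10000, because weighting by reads, as first planned, left heart 2 without an outflow section. Members, gene lists and tests were chosen with earlier results of these data known. The text names the 24 members with most reads, all that passed, and per comparison and direction the 3 with the smallest p among those with the same direction in every heart with reads. PLXNA3, ROBO1 and sema6bb, and the OFT values of epha4b and EFNB2 row 1 and the chamber values of SEMA3C, were added after their values were seen. Rows at the read minimum, robo4 and SLITRK2 are named for the account of members only. Alternatives changed size factors, filter, windows, depth, block, hearts used, replicate unit, weighting, pseudocount and placement. Marker lists not quoted above, or quoted only in part (red blood cells, smooth muscle, mesenchyme), are summarised in the closing part.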

Additional observations from a re-analysis of the deposited data

How the results depend on the processing

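The number of members passing limma stayed at 0 in the ventricle, AV canal and sinoatrial comparisons under every alternative run. These included the fit without the replicate block (0 members in all 4 comparisons), limma-voom, a pseudocount of 1 and placement by read-weighted medians. The limma-voom fit and the pseudocount of 1 were chosen after seeing the data. Placement by read-weighted medians was first planned as the main one, and became an alternative because it left heart 2 without an outflow section. In the outflow tract comparison the number of members passing was 0 to 1 when each heart was left out (1 without heart 3). It was 1 with sections under 10000 reads left out, which also removes the outflow sections of heart 3. With the sections of heart 1 as samples it was 9. Of 24 named fold changes, 1 changed direction: EFNB2 row 1 in the outflow tract was -0.12 and became 0.63 with windows moved 1 section toward the inflow end, 1.09 with sections under 10000 reads left out, 0.92 with limma-voom, 0.30 with a pseudocount of 1, 2.25 over the sections of heart 1, and -1.23 to 1.11 when each heart was left out (1.11 without heart 3). The other 23 kept their direction in all 294 alternative values. Most were chosen for a shared direction and the rest after their values were seen, so this is no sign of stability. Over all genes the calls were 1, 5, 3 and 4 in the 4 comparisons, in the order of the report. Left-out hearts gave 1 to 145, 4 to 8, 2 to 9 and 6 to 29. The highest counts were 857 over the sections of heart 1 for the outflow tract, 22 with limma-voom between the chambers, 16 with limma-voom for the AV canal and, apart from left-out hearts, 17 with limma-voom for the sinoatrial region (15 with median-of-ratios size factors). Those factors moved the median of all genes to -0.43, 0.31, 0.03 and -0.80. Without the single most abundant row in the denominator, which took 19.2 to 37.8% of reads, the mean summed member level was 14.4 per 10000 in the atrium (10.4 with it) and 32.4 in the sinoatrial region (22.8 with it). Leaving out hearts moved that mean to 7.71 to 18.9 in the outflow tract, 11.8 to 23.9 in the ventricle, 6.97 to 12.2 in the AV canal, 8.99 to 12.3 in the atrium and 18.1 to 27.2 in the sinoatrial region. Scaling by total reads is the scaling already used, and a Wald count test was not run. Depth limits what can be seen: with 14700 reads the outflow tract of heart 3 leaves levels of up to 2.04 per 10000 compatible with 0 reads.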

Other observations

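Further marker sums per 10000 in hearts 1, 2 and 3 were as follows. Smooth muscle and outflow tract markers (6 of 9 genes with reads) summed to 14.3, 14.7 and 8.92 in the sinoatrial region and 2.39, 2.38 and 21.1 in the outflow tract. Mesenchyme and epicardium markers (7 of 9) summed to 10.8, 6.88 and 0 in the outflow tract and 0.58, 29.4 and 17.8 in the sinoatrial region. Red blood cell markers (5 of 8) were at 19.8 in the ventricle of heart 1 and at 70.8 in the AV canal of heart 2. Their part in the guidance gene levels was not tested.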
